A study of Mus musculus with 4 samples.

Results

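The genes described here are 35 mouse genes of the unfolded protein response (UPR) and of protein folding in the endoplasmic reticulum (ER), taken by gene symbol from the 54532 genes of the deposited expression table. They fall into 15 chaperones and folding enzymes, 8 genes of ER-associated degradation, 4 genes for the stress sensors and XBP1, and 8 genes of the ATF4/CHOP arm. The symbols were on 36 rows, because Ddit3 also had a second row of 105 bases that held no reads in any library and was not used. All 35 genes reached 1 FPKM (a read level per kilobase of gene that allows for sequencing depth) in at least 2 libraries, as did 12716 genes in all. Several of them share ground with other genes of the annotation (Hsp90b1, Herpud1, Manf, Eif2ak3, Ddit3 and Syvn1 among them). Some of these overlaps are on the same strand, and for those on opposite strands the sources used here do not say whether reads were assigned by strand, so the values of these genes are uncertain by the reads they may share.

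RNA of pancreatic islets was sequenced from male C57BL/6 mice of 10 to 12 weeks of age. There were 2 transgenic libraries, from mice that overexpress the microRNAs miR-29a and miR-29b-1 specifically in beta cells, and 2 wild-type libraries. Each genotype has a library numbered 1 and a library numbered 2, and the labels do not say what a number marks. The labels name no treatment and no other allele. Which promoter drives the transgene is unknown here, as is whether 1 mouse or a pool went into each library. The p-values below therefore rest on the spread from library to library, which may be technical. Libraries that share a number differ in genotype, so with number as the single term that spread includes any genotype difference. With genotype as the single term it includes the difference between the numbers.

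The libraries held 21670854 to 27080907 reads in genes, so that 3 reads of a gene of 1 kilobase corresponded to 0.116 to 0.143 FPKM. Libraries of the same number lay together: between the libraries numbered 2 and those numbered 1, 1279 genes were called higher and 1351 were called lower by limma on log2(FPKM + 1), with an adjusted p below 0.05, which is 10.1% and 10.6% of the 12716 genes compared. Between the genotypes the same test called 0 genes in either direction. Beta cell markers had a summed level of 271550 FPKM in transgenic 2 and 286940 in wild type 2. The sum was 151620 in transgenic 1 and 223900 in wild type 1. Most of it was Ins2, at 200260 FPKM in transgenic 2, 211740 in wild type 2, 89340 in transgenic 1 and 152360 in wild type 1. Trpm5, the lowest of these markers, had 25.3 FPKM in wild type 2 and 12.6 in wild type 1. None of the 12 beta cell markers was at 0 in any library. The UPR genes were therefore described first by library number and then by genotype, over all libraries and within each number. The comparison by number was chosen because earlier results of these data had libraries of the same number together. Its p-values are therefore no independent test of that grouping.

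The UPR adjusts the folding capacity of the ER to the load of secreted protein. Beta cells make insulin in large amounts and depend on it. Sensors in the ER membrane start it: ATF6 is cut to release a transcription factor, IRE1 (Ern1) splices the mRNA of XBP1, and PERK (Eif2ak3) phosphorylates eIF2alpha, which slows translation but favours that of ATF4. ATF6 and XBP1 are known for inducing chaperones and degradation genes, and ATF4 with CHOP (Ddit3) for inducing genes of amino acid supply, redox control and cell death. Gene-level RNA reads show none of the cutting, splicing or phosphorylation, so the values below are RNA levels of the genes only.

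The promoter sequences of the chaperone and ATF4 arms show the elements by which these arms are usually told apart, and are given first for that reason. RefSeq promoters (GRCm38.p6, from 250 bases before to 50 bases after the start) were found for 31 of the 35 genes, and not for Atf6, Derl1, Hyou1 and Manf. The ER stress response element ERSE (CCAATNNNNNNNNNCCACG, searched on both strands) was present in 9 of the 31 genes, against 0.119% of all 32851 promoters in the table, and the element ERSE-II (ATTGG, then 1 base of any kind, then CCACG) in 2 of the 31 against 0.0365%. Elements of this kind were first described on promoters of chaperone genes, Hspa5 among them, so these shares describe the choice of genes. The C/EBP-ATF response element (TGATGNAA) was present in 5 of the 31 genes, or 16.1%, against 3.97% of all promoters, and the UPR element (TGACGTGG) in 0 of the 31 against 0.676%. ERSE or ERSE-II was found in 8 of 13 chaperone promoters, 3 of 7 degradation promoters and 0 of 8 ATF4/CHOP promoters. The C/EBP-ATF element was found in 0 of 13, 1 of 7 and 4 of 8 of those promoters. No searched motif overlapped another in the sequences printed here. Only exact matches within these promoter windows were counted and marked. A gene without a match may still hold a variant of an element or 1 farther away.

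The Hspa5 promoter (chr2:34771840-34772139, plus strand) holds ERSE 65 bases before the start, in capitals:
Hspa5: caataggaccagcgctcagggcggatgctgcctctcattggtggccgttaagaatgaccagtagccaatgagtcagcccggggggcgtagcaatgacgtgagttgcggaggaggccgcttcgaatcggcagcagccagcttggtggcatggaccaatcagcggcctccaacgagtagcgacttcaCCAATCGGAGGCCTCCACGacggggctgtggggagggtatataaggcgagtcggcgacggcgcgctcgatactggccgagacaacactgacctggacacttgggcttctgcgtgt
The Herpud1 promoter (chr8:94386179-94386478, plus strand) holds a C/EBP-ATF element on the opposite strand and then ERSE-II, both in capitals, and is shown because it was the only one of the 31 genes with both kinds of element:
Herpud1: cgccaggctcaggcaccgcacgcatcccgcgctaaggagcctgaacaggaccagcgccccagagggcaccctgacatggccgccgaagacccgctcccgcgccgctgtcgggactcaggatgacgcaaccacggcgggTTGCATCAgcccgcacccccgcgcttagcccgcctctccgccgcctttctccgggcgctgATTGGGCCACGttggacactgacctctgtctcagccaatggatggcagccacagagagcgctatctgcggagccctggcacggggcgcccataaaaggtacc
The ERSE matches of other members, in capitals with 20 bases on each side and read along the strand of the gene, are shown for the 2 members with the lowest and the 2 with the highest differences between library numbers among the chaperones with the element, and for both degradation genes with it. Those of Calr, Creld2 and Derl3 lie on the opposite strand of the gene:
Calr, chr8:84847055-84847113, minus strand: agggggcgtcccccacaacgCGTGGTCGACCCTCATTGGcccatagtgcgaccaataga
Creld2, chr15:88819500-88819558, plus strand: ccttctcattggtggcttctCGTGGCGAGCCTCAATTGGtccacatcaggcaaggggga
Canx, chr11:50325780-50325838, minus strand: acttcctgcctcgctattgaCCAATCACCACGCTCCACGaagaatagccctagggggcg
Pdia6, chr12:17266471-17266529, plus strand: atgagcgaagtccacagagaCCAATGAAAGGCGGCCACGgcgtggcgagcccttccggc
Derl3, chr10:75893222-75893280, plus strand: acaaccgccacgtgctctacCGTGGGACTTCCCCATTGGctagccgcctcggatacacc
Syvn1, chr19:6046512-6046570, plus strand: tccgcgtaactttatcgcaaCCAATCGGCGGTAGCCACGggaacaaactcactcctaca
The C/EBP-ATF matches of the ATF4/CHOP arm follow in the same layout, with those of Chac1, Nupr1 and Trib3 on the opposite strand:
Asns, chr6:7693205-7693252, minus strand: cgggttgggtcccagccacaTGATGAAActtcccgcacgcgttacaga
Chac1, chr2:119351029-119351076, plus strand: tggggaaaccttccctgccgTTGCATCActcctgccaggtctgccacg
Nupr1, chr7:126625553-126625600, minus strand: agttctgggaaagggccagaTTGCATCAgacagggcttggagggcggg
Trib3, chr2:152344019-152344066, minus strand: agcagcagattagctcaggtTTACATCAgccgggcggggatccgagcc

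The 35 UPR genes as a group were lower in the libraries numbered 2. Of the 35 genes, 23 (65.7%) were called lower, against 10.6% of all genes compared, and 0 were called higher, against 10.1% (limma, Benjamini-Hochberg over the 12716 genes). Canx, at 0.03 on the log2 scale, was the only one of the 35 with a positive difference, and in voom as well 0 of the 35 were called higher. In 32 of the 35 genes (91.4%) both number 2 libraries were below both number 1 libraries, against 32.4% of all genes, and in 0 of the 35 were both above, against 34.4%. The median difference was -0.68 over the 35 genes and 0.01 over all genes compared. Without transgenic 1, the number called lower was 15, and 15 of the 23 genes were called whichever single library was left out. The exceptions were Atf4, Derl1, Dnajb9, Edem1, Edem2, Eif2ak3, P4hb and Xbp1. With no filter on low values, 7 of the 35 passed (Calr, Creld2, Derl3, Herpud1, Hyou1, Pdia4 and Sel1l). That fit ran over every gene with a value above 0 in any library, and its SEs changed as well.

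**Figure D1:**
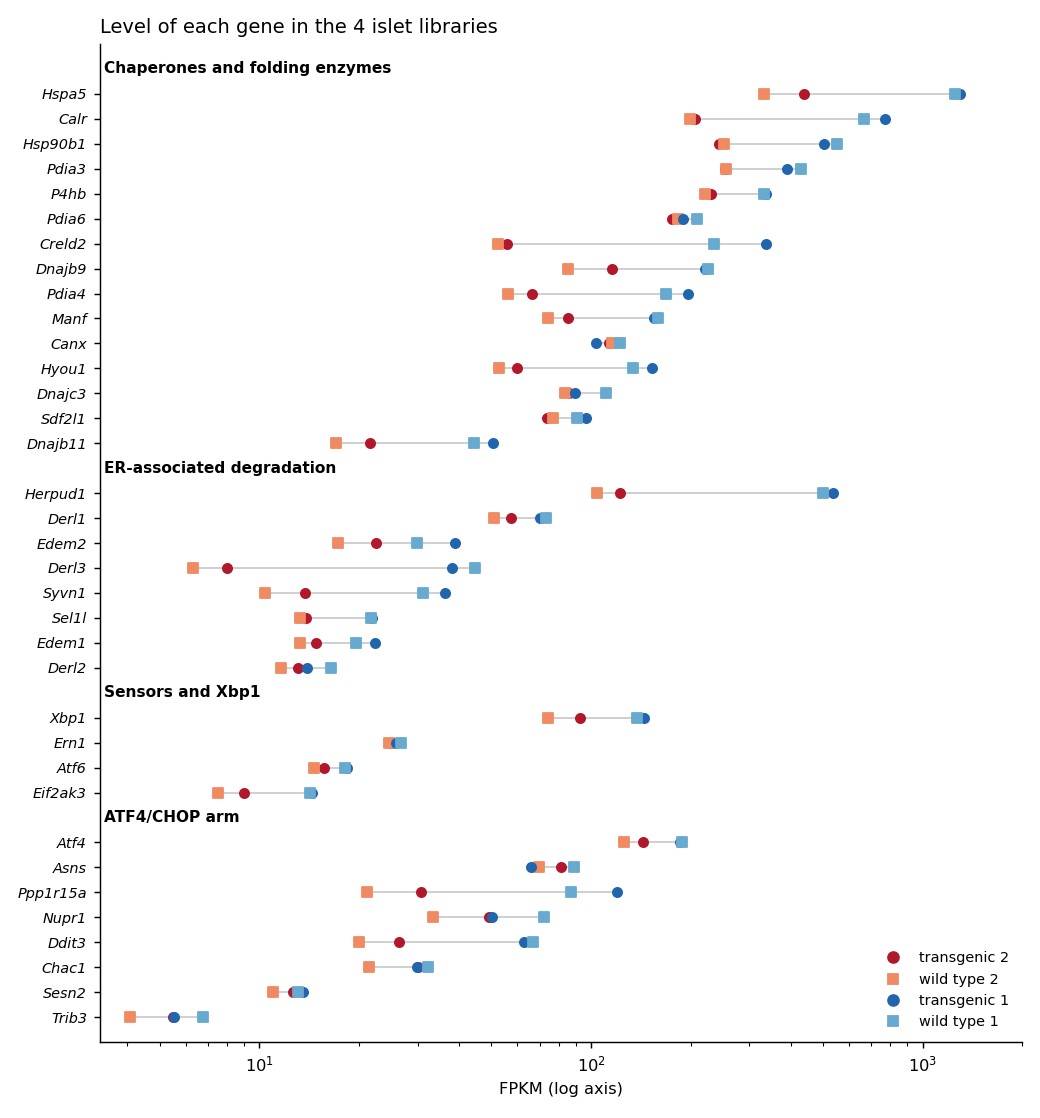
Level of each of the 35 genes (FPKM, log axis) in the 4 libraries, grouped by role and ordered by mean level, with 1 point per library. Circles are transgenic and squares wild-type libraries, and red shades are number 2 and blue shades number 1; the long gaps of Creld2, Herpud1, Derl3 and Calr run between the numbers, and the points of Canx, Ern1, Pdia6 and Sesn2 lie close together.

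Among the general ER chaperones, Hspa5, which encodes BiP, the main Hsp70 chaperone of the ER, had the highest FPKM of the 35 genes in every library. The gene (ENSMUSG00000026864, chr2:34771970-34777547, GRCm38, plus strand) stood at 438 FPKM in transgenic 2 and 333 in wild type 2, against 1292 in transgenic 1 and 1255 in wild type 1. The groups by number did not overlap, and the log2(FPKM + 1) difference of number 2 minus number 1 was -1.74 ± 0.15 (SE, 2 libraries per number; adjusted p = 0.00442, limma). Hsp90b1, encoding GRP94, the ER member of the Hsp90 family, stood at 242 FPKM in transgenic 2 and 252 in wild type 2, against 504 in transgenic 1 and 551 in wild type 1. Hyou1, a large Hsp70-like protein that exchanges nucleotide on BiP, stood at 59.7 FPKM in transgenic 2 and 52.7 in wild type 2, against 153 in transgenic 1 and 134 in wild type 1. Their differences were -1.09 ± 0.10 (adjusted p = 0.00479) and -1.34 ± 0.12 (adjusted p = 0.00442), so all of these chaperones fell by more than the spread within a number.

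The lectin chaperones, which bind sugar chains of new glycoproteins, parted from each other. Calr (calreticulin, soluble in the ER; chr8:84841850-84846934, minus strand) stood at 206 FPKM in transgenic 2 and 198 in wild type 2, against 771 in transgenic 1 and 666 in wild type 1, a difference of -1.82 ± 0.11 (adjusted p = 0.00254, limma). Canx (calnexin, its membrane-bound counterpart) stood at 113 FPKM in transgenic 2 and 116 in wild type 2, against 103 in transgenic 1 and 122 in wild type 1. The number 2 values of Canx lay between the number 1 values, and its difference was 0.03 ± 0.11 (adjusted p = 0.886). Both promoters hold ERSE.

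The disulfide isomerases, which form and rearrange disulfide bonds of secreted proteins, covered the range between these. Pdia4 (ERp72) stood at 66.3 FPKM in transgenic 2 and 56.1 in wild type 2, against 196 in transgenic 1 and 168 in wild type 1, and fell by 1.56 ± 0.13 on the log2 scale (adjusted p = 0.0042, limma). Pdia3 (ERp57, a partner of calnexin and calreticulin) stood at 253 FPKM in transgenic 2 and 255 in wild type 2, against 389 in transgenic 1 and 430 in wild type 1. P4hb (protein disulfide isomerase itself) stood at 231 FPKM in transgenic 2 and 221 in wild type 2, against 337 in transgenic 1 and 331 in wild type 1. They fell by 0.68 ± 0.10 (adjusted p = 0.0133) and 0.56 ± 0.10 (adjusted p = 0.017), less than Pdia4 did. Pdia6 (P5) had 175 FPKM in transgenic 2 and 183 in wild type 2, against 190 in transgenic 1 and 209 in wild type 1. Its number groups did not overlap, but the difference of -0.15 ± 0.10 did not pass (adjusted p = 0.319).

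The J-domain co-chaperones, which set the ATP cycle of BiP, also differed among themselves. Dnajb9 (ERdj4, which also restrains IRE1) stood at 116 FPKM in transgenic 2 and 85.1 in wild type 2, against 221 in transgenic 1 and 225 in wild type 1. Dnajb11 (ERdj3) stood at 21.5 FPKM in transgenic 2 and 17.0 in wild type 2, against 50.5 in transgenic 1 and 44.5 in wild type 1. Both were lower in number 2, by -1.16 ± 0.16 (adjusted p = 0.0103) and -1.27 ± 0.14 (adjusted p = 0.00635) on the log2 scale in limma. Dnajc3 (p58IPK, which also restrains PERK) had 85.8 FPKM in transgenic 2 and 83.5 in wild type 2, against 89.7 in transgenic 1 and 111 in wild type 1. Sdf2l1, a partner of the ERdj3 complex, had 73.6 FPKM in transgenic 2 and 76.6 in wild type 2, against 96.8 in transgenic 1 and 90.8 in wild type 1. Neither passed the test, at -0.24 ± 0.13 (adjusted p = 0.232) and -0.32 ± 0.09 (adjusted p = 0.0666), although their number 2 libraries were both below their number 1 libraries.

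Of the secreted stress proteins, Creld2 had one of the 2 lowest differences among the 35 genes. Creld2, an ER protein released under stress (chr15:88819646-88826683, plus strand), stood at 55.8 FPKM in transgenic 2 and 52.4 in wild type 2, against 336 in transgenic 1 and 235 in wild type 1. The transgenic number 2 value was 0.166 times the number 1 value and the wild-type value 0.223 times, and the difference was -2.36 ± 0.18 (adjusted p = 0.00347, limma). Manf, a neurotrophic factor that is retained in the ER with BiP, stood at 85.0 FPKM in transgenic 2 and 74.1 in wild type 2, against 155 in transgenic 1 and 160 in wild type 1, a difference of -0.98 ± 0.11 (adjusted p = 0.00635).

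In the degradation arm, which extracts misfolded proteins from the ER for the proteasome, 7 of 8 genes were called lower in number 2. In all 8, both number 2 libraries were below both number 1 libraries. The shares over all genes compared were 10.6% and 32.4%. Derl3, a derlin of the extraction channel (chr10:75893413-75895941, plus strand), stood at 8.0 FPKM in transgenic 2 and 6.29 in wild type 2, against 38.2 in transgenic 1 and 44.6 in wild type 1. Its difference of -2.38 ± 0.14 (adjusted p = 0.0021, limma) was the lowest of the 35 genes. Herpud1, a scaffold of the ubiquitin ligase HRD1 (chr8:94386438-94395377, plus strand), stood at 122 FPKM in transgenic 2 and 104 in wild type 2, against 535 in transgenic 1 and 502 in wild type 1. That was a difference of -2.19 ± 0.12 (adjusted p = 0.00176), with 0.229 times the number 1 level in transgenic and 0.207 times in wild-type islets.

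The ligase genes of the same machinery followed. Syvn1, which encodes HRD1, stood at 13.7 FPKM in transgenic 2 and 10.4 in wild type 2, against 36.2 in transgenic 1 and 31.1 in wild type 1, a difference of -1.42 ± 0.15 (adjusted p = 0.00603, limma). Sel1l, the adaptor that holds HRD1, stood at 13.8 FPKM in transgenic 2 and 13.2 in wild type 2, against 21.8 in transgenic 1 and 21.7 in wild type 1, a difference of -0.65 ± 0.09 (adjusted p = 0.00973). Of the mannose-trimming proteins, Edem1 had 14.9 FPKM in transgenic 2 and 13.3 in wild type 2, against 22.3 in transgenic 1 and 19.6 in wild type 1. Edem2 had 22.4 FPKM in transgenic 2 and 17.3 in wild type 2, against 38.8 in transgenic 1 and 29.97 in wild type 1. Both passed, at -0.54 ± 0.11 (adjusted p = 0.0255) and -0.76 ± 0.17 (adjusted p = 0.0343). The other two derlins moved little beside Derl3. Derl1 had 57.5 FPKM in transgenic 2 and 50.9 in wild type 2, against 70.2 in transgenic 1 and 72.9 in wild type 1, at -0.40 ± 0.10 (adjusted p = 0.0471). Derl2 had 13.1 FPKM in transgenic 2 and 11.6 in wild type 2, against 14.0 in transgenic 1 and 16.4 in wild type 1, at -0.27 ± 0.12 (adjusted p = 0.144).

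Of the sensors, only the gene for PERK passed. Eif2ak3 stood at 8.97 FPKM in transgenic 2 and 7.51 in wild type 2, against 14.4 in transgenic 1 and 14.2 in wild type 1, a difference of -0.73 ± 0.11 (adjusted p = 0.0121, limma). Atf6 had 15.7 FPKM in transgenic 2 and 14.6 in wild type 2, against 18.4 in transgenic 1 and 18.1 in wild type 1. Ern1, encoding IRE1, had 24.9 FPKM in transgenic 2 and 24.7 in wild type 2, against 25.8 in transgenic 1 and 26.7 in wild type 1. Both were lower in number 2 without passing, at -0.25 ± 0.09 (adjusted p = 0.097) and -0.08 ± 0.09 (adjusted p = 0.531). Xbp1, the transcription factor whose mRNA IRE1 splices, stood at 92.4 FPKM in transgenic 2 and 74.0 in wild type 2, against 144 in transgenic 1 and 137 in wild type 1, a difference of -0.76 ± 0.13 (adjusted p = 0.0176). This is the sum over spliced and unspliced Xbp1 mRNA.

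The ATF4/CHOP arm split into 3 genes that were called lower in number 2 and 5 that were not. Ppp1r15a, encoding GADD34, the phosphatase subunit that reverses eIF2alpha phosphorylation (chr7:45522916-45526268, minus strand), stood at 30.7 FPKM in transgenic 2 and 21.1 in wild type 2, against 119 in transgenic 1 and 87.0 in wild type 1. Ddit3, encoding CHOP, stood at 26.3 FPKM in transgenic 2 and 19.97 in wild type 2, against 62.8 in transgenic 1 and 67.04 in wild type 1. Atf4 itself stood at 143 FPKM in transgenic 2 and 126 in wild type 2, against 185 in transgenic 1 and 188 in wild type 1. The differences were -1.96 ± 0.22 for Ppp1r15a (adjusted p = 0.00677, limma), -1.46 ± 0.14 for Ddit3 (adjusted p = 0.00537) and -0.47 ± 0.11 for Atf4 (adjusted p = 0.0345).

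The other 5 genes of the arm, most of them known targets of ATF4, did not pass. Asns, asparagine synthetase, had 81.2 FPKM in transgenic 2 and 69.6 in wild type 2, against 66.1 in transgenic 1 and 88.8 in wild type 1, so its transgenic libraries differed by 0.29 and its wild-type libraries by -0.35. Chac1, which degrades glutathione, had 30.1 FPKM in transgenic 2 and 21.4 in wild type 2, against 29.8 in transgenic 1 and 32.3 in wild type 1. Trib3, a pseudokinase that restrains ATF4 and CHOP, had the lowest FPKM of the 35 genes in every library, with 5.49 FPKM in transgenic 2 and 4.07 in wild type 2, against 5.51 in transgenic 1 and 6.78 in wild type 1. In Chac1 and Trib3 the 2 transgenic libraries were alike while wild type 2 was below wild type 1. Nupr1, a stress-induced chromatin protein, had the same order, with 49.4 FPKM in transgenic 2 and 33.3 in wild type 2, against 50.3 in transgenic 1 and 72.4 in wild type 1. Sesn2, a leucine sensor that restrains mTORC1, had 12.6 FPKM in transgenic 2 and 11.0 in wild type 2, against 13.6 in transgenic 1 and 13.1 in wild type 1. Over all 4 libraries these 5 genes had differences between -0.56 ± 0.24 in Nupr1 (adjusted p = 0.149) and -0.03 ± 0.17 in Asns (adjusted p = 0.918), none of which passed in limma.

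**Figure D2:**
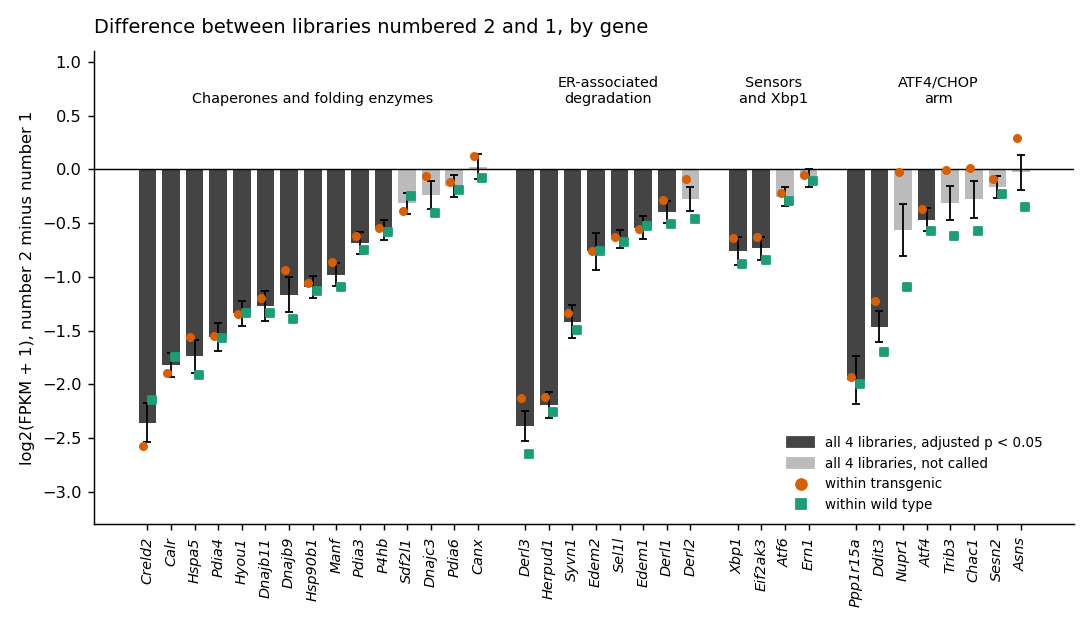
Difference of number 2 minus number 1 in log2(FPKM + 1) for each gene, grouped by role. Bars are the difference over all 4 libraries with its SE in limma, dark where the adjusted p is under 0.05, and points are the difference within the transgenic (circles) and wild-type (squares) libraries; the chaperone and degradation bars reach -2.36 and -2.38, and in the ATF4/CHOP arm the points of Nupr1, Trib3, Chac1 and Asns lie apart, with the transgenic ones near or above 0.

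Set side by side, the chaperone arm differed more between the numbers than the ATF4/CHOP arm did by its median, and the arms' ranges overlapped. The chaperone median was -1.09 (11 of 15 called lower, 14 with both number 2 libraries below both number 1 libraries), the degradation median -0.70 (7 of 8 and 8), the median of the sensors and Xbp1 -0.49 (2 of 4 and 4), and the ATF4/CHOP median -0.39 (3 of 8 and 6). For all genes compared these shares were 10.6% and 32.4%. Within the transgenic libraries the medians were -0.93 for chaperones and -0.06 for the ATF4/CHOP arm, and within the wild-type libraries -1.13 and -0.60. Without wild type 2 the ATF4/CHOP median was -0.21. The ranges were -2.36 to 0.03 for chaperones and -1.96 to -0.03 for the ATF4/CHOP arm. These medians are descriptions, and no test between the arms was made. The order of the 2 arms was not seen in the wider lists given below. There the median was -0.09 for other ER folding genes and -0.10 for other ATF4 targets and eIF2alpha kinases.

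By library, the median deviation of the chaperones from each gene's mean over the 4 libraries was -0.39 in transgenic 2 and -0.59 in wild type 2, against 0.48 in transgenic 1 and 0.54 in wild type 1. For the ATF4/CHOP arm it was 0.0035 in transgenic 2 and -0.36 in wild type 2, against 0.093 in transgenic 1 and 0.27 in wild type 1. By these medians both arms had the number 2 libraries below the number 1 libraries. The ATF4/CHOP medians of both transgenic libraries lay near the gene means, and that of wild type 2 was the lowest. Single genes of this arm departed from its median. Between transgenic 2 and transgenic 1, Ppp1r15a differed by -1.93 and Ddit3 by -1.22, and Asns by 0.29. Summed over the arm, chaperones came to 2222 FPKM in transgenic 2 and 2054 in wild type 2, against 4886 in transgenic 1 and 4733 in wild type 1. The ATF4/CHOP arm came to 379 FPKM in transgenic 2 and 307 in wild type 2, against 533 in transgenic 1 and 555 in wild type 1.

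Markers of other cells and of tissue handling moved with the library number as well. Of 26 markers of acinar cells, the enzyme-secreting cells of the exocrine pancreas, 23 were compared and 22 were called lower in number 2, with a median of -2.06 and none at 0 in any library. Their summed level was 2405 FPKM in transgenic 2 and 1455 in wild type 2, against 9036 in transgenic 1 and 6750 in wild type 1. All 11 immediate early genes, which respond within minutes to stress and to tissue dissociation, were called lower, with a median of -1.84 and a summed level of 814 FPKM in transgenic 2 and 584 in wild type 2, against 3774 in transgenic 1 and 2695 in wild type 1. Beta cell markers had 4 of 12 called higher and 0 lower in number 2, with a median of 0.21. Of the other marker lists, alpha cells had 3 of 6 and delta cells 2 of 4 called higher, endothelial cells 3 of 7 and duct cells 2 of 4 compared called lower, and none was called among 3 stellate and pericyte, 7 macrophage and 1 B or plasma cell markers compared. Among all genes compared, 10.1% were called higher and 10.6% lower. In bulk RNA, fewer cells of a type and less RNA per cell cannot be told apart. The part of acinar RNA, of immediate early stress and of beta cell content in the differences of the UPR genes was not tested.

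**Figure D3:**
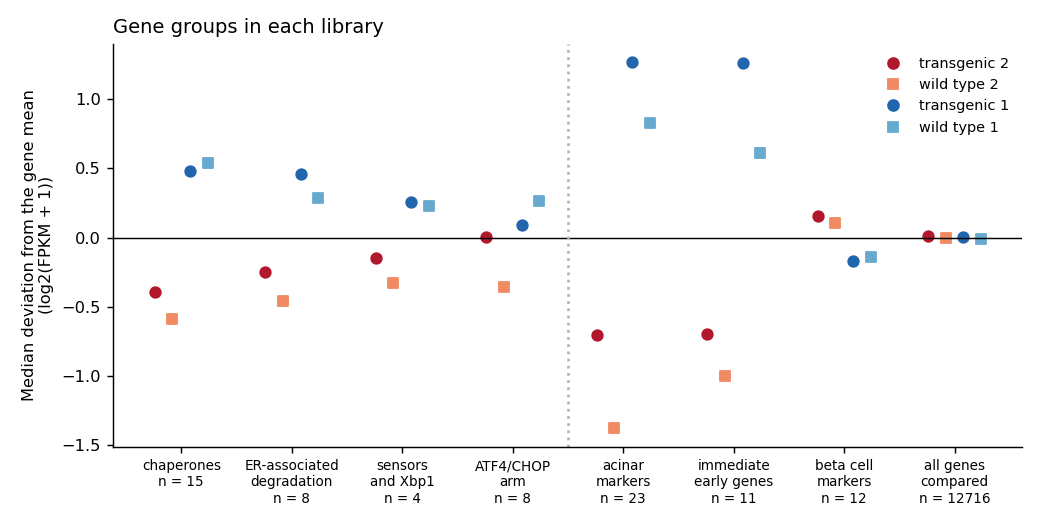
Median deviation of each gene group from the gene means over the 4 libraries (log2(FPKM + 1)), with 1 point per library and the number of genes under each group. Left of the dotted line are the 4 UPR groups and right of it acinar markers, immediate early genes, beta cell markers and all 12716 genes compared; the chaperones separate by number at -0.39 and -0.59 against 0.48 and 0.54, acinar markers and immediate early genes separate more widely in the same direction, and all genes lie near 0.

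Wider lists of the same pathways had medians nearer 0 than the 35 genes did. Of 25 other ER folding genes compared, 4 were called lower and 1 higher in number 2 (limma), with a median of -0.09. Erp44, a thiol-retention factor, had the smallest p of them, at 24.3 FPKM in transgenic 2 and 22.6 in wild type 2, against 34.1 in transgenic 1 and 38.2 in wild type 1 (-0.60 ± 0.10, adjusted p = 0.0169). Of 19 other degradation genes, 3 were called lower, Vcp (the ATPase that pulls proteins out of the ER) among them at -0.45 ± 0.10 (adjusted p = 0.0293). In that list 2 were called higher, Fam8a1 (an HRD1 cofactor) at 0.76 ± 0.09 (adjusted p = 0.00826) and Rnf5 (a membrane ubiquitin ligase) at 0.43 ± 0.10 (adjusted p = 0.0345), and the median was -0.08. Of 10 other sensors and regulators compared, 1 was called lower, Wfs1 (wolframin, an ER membrane protein that protects beta cells) at -0.68 ± 0.16 (adjusted p = 0.0371), and the median was -0.20. Of 36 other ATF4 targets and eIF2alpha kinases compared, 4 were called lower and 1 higher, with a median of -0.10. Among all genes compared, 10.6% were called lower and 10.1% higher, and the counts of these lists cannot be told from those shares.

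In the list of other ATF4 targets and eIF2alpha kinases, the genes called lower encode a pair of transcription factors, a phosphatase subunit and an amino acid carrier. Atf3, which is itself an early stress gene, stood at 35.7 FPKM in transgenic 2 and 17.0 in wild type 2, against 121 in transgenic 1 and 107 in wild type 1 (-2.15 ± 0.32, adjusted p = 0.0128, limma). Cebpb, a partner of CHOP, stood at 11.9 FPKM in transgenic 2 and 9.13 in wild type 2, against 32.1 in transgenic 1 and 20.3 in wild type 1 (-1.21 ± 0.23, adjusted p = 0.0226). Ppp1r15b, the constitutive counterpart of GADD34, fell by 0.59 ± 0.10 (adjusted p = 0.0152), and Slc7a5, an amino acid carrier, was the other gene called lower. The exception in the list was Vldlr, a lipoprotein receptor, at 0.59 ± 0.09 (adjusted p = 0.0144).

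Genes with an ER stress element in the promoter had the lower median difference between numbers, and genes of both kinds were called. The median was -1.42 over the 11 genes with ERSE or ERSE-II, 8 of them called lower. It was -0.56 over the 20 genes with a promoter but no exact match to either, 12 of them called lower. The share called lower among all genes compared was 10.6%. The contrast of these medians is in part a contrast between arms. Of the promoters found, 0 of 8 in the ATF4/CHOP arm and 0 of 3 of the sensors and Xbp1 held either element. Among chaperones with an element, differences ran from -2.36 (Creld2) to 0.03 (Canx). Among chaperones with a promoter but no exact match they ran from -1.56 (Pdia4) to -0.32 (Sdf2l1), inside that range. Canx, Pdia6 and Dnajc3 hold ERSE and were not called. The 5 genes with a C/EBP-ATF element had a median of -0.31, and Herpud1, the only one of them with ERSE-II as well, was the only one called. The number differences that these medians summarise were known when the motifs were chosen, so they are given without a test.

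Between the genotypes, 0 of the 35 UPR genes were called in either direction, against 0% of all genes each way. At an unadjusted p under 0.05 limma had 83 genes and 0 of the 35, and limma's voom on the recovered reads called 0 genes and had 32 genes and 0 of the 35 at that level. Transgenic values were all above wild-type values in 0 of the 35 genes, against 12.2% of all genes, and all below in 1 gene, Canx (2.86%), against 9.03%. Neither outcome could occur in the 32 genes whose number 2 libraries were both below their number 1 libraries. These counts therefore do not show that the genotypes were alike. The differences of transgenic minus wild type over all 4 libraries ran from -0.14 to 0.48. Their medians were 0.07 for chaperones, 0.11 for degradation genes, 0.09 for the sensors and Xbp1 and 0.10 for the ATF4/CHOP arm, against 0.01 for all genes compared. The library numbers lay so far apart that the SE of Hspa5 was 0.85 around a genotype difference of 0.22 and that of Creld2 was 1.14 around 0.30, and a miss of the threshold does not show that the genotypes were alike.

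The genotypes were also compared within each number. Transgenic exceeded wild type in both numbers in 17 of the 35 genes (48.6%), against 33.5% of all genes, and was below it in both in 4 (11.4%), against 27.4%. These 4 were Canx, Hsp90b1, Pdia3 and Pdia6. Ppp1r15a stood at 1.45 times the wild-type level in number 2 and 1.37 times in number 1, and Edem2 at 1.30 times in number 2 and 1.29 times in number 1. Hspa5 stood at 1.31 times in number 2 and 1.03 times in number 1, Syvn1 at 1.32 times in number 2 and 1.16 times in number 1, and Xbp1 at 1.25 times in number 2 and 1.05 times in number 1. Creld2 had the reverse order, with 1.06 times in number 2 and 1.43 times in number 1.

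Of the 8 genes of the ATF4/CHOP arm, 6 were higher in transgenic than in wild-type islets in number 2 and lower in number 1, as were 13 of the 35 genes (37.1%) and 18.7% of all genes, and the other two, Ppp1r15a and Sesn2, were higher in both. The median of the arm was 0.37 in number 2 and -0.10 in number 1, whereas that of the chaperones was 0.06 and 0.03. Nupr1 stood at 1.48 times the wild-type level in number 2 and 0.695 times in number 1. In the same order of numbers, Asns stood at 1.17 and 0.745 times, Chac1 at 1.41 and 0.921 times, Trib3 at 1.35 and 0.813 times, Ddit3 at 1.32 and 0.937 times and Atf4 at 1.14 and 0.983 times, while Sesn2 stood at 1.15 and 1.03 times. Each of these ratios rests on 1 library of each genotype and has no replicate.

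With the library number as a term, voom had 204 genes (1.6%) called higher in transgenic islets and 34 (0.267%) called lower, and 2 of the 35 UPR genes (5.71%) higher and 0 lower. These were Ppp1r15a, at 0.50 ± 0.09 (SE; adjusted p = 0.000519), and Edem2, at 0.37 ± 0.09 (adjusted p = 0.014). After a curve on gene GC content was removed from each library, 61 genes (0.48%) were higher and 13 (0.102%) lower, and the same fit had Ppp1r15a at 0.39 ± 0.09 (adjusted p = 0.0119) and Edem2 at 0.35 ± 0.09 (adjusted p = 0.0468). That fit leaves 1 residual degree of freedom, and the labels do not say that the numbers pair the libraries. In limma on log2(FPKM + 1) with the same term neither passed. Within the numbers, acinar markers were also higher in transgenic islets, by a median of 0.77 in number 2 and 0.47 in number 1 and in 23 of 23 genes in both, and so were immediate early genes, by 0.53 in number 2 and 0.51 in number 1 and in 10 of 11 genes in both. The part of these in the higher Ppp1r15a and Edem2 was not tested.

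**Figure D4:**
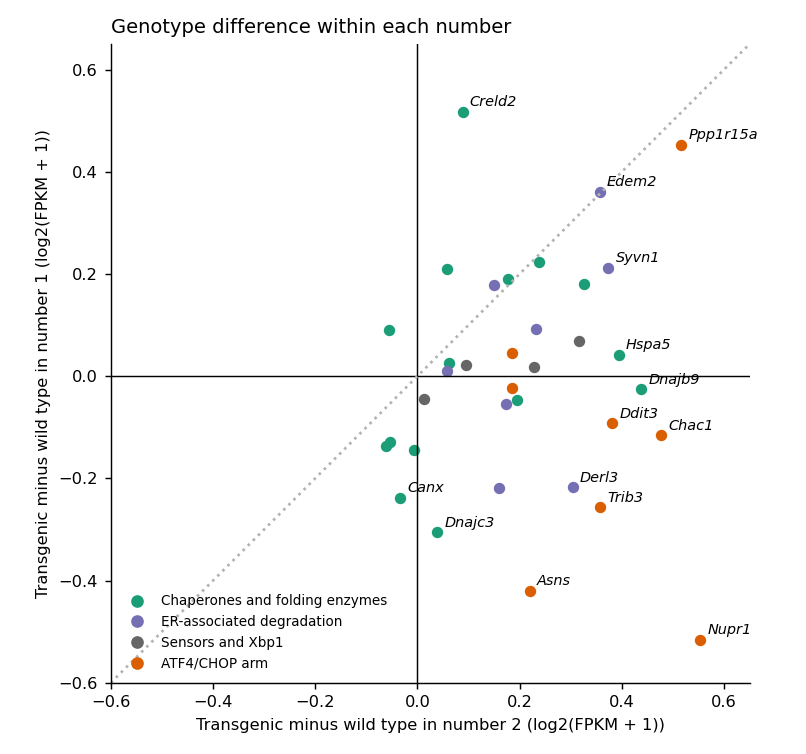
Transgenic minus wild type in log2(FPKM + 1) for each of the 35 genes, within number 2 (horizontal) and within number 1 (vertical), with 1 point per gene coloured by role; the dotted line marks equal differences. Ppp1r15a and Edem2 lie near the line, while Nupr1, Asns, Chac1, Trib3 and Ddit3 lie to the lower right, higher in transgenic islets in number 2 and lower in number 1.

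None of the other pathway lists had a gene called between the genotypes by limma. Of the 10 other sensors and regulators compared, 9 were higher in transgenic islets in both numbers, against 33.5% of all genes. Atf6b, the paralog of Atf6, had the smallest p among them, with 23.0 FPKM in transgenic 2 and 16.1 in wild type 2, against 23.1 in transgenic 1 and 16.9 in wild type 1. Its transgenic libraries were both above its wild-type libraries, and its difference of 0.46 had an unadjusted p of 0.0244 and did not pass after adjustment. Creb3l1, an ER-bound transcription factor related to ATF6, had 18.8 FPKM in transgenic 2 and 11.2 in wild type 2, against 25.3 in transgenic 1 and 20.4 in wild type 1. Bhlha15, a secretory-cell transcription factor that acinar cells also use, had 15.7 FPKM in transgenic 2 and 9.11 in wild type 2, against 20.9 in transgenic 1 and 18.4 in wild type 1. Both were higher in transgenic islets in each number, as the acinar markers were, and their part was not tested.

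A microRNA lowers mRNAs mainly through sites in the 3′ UTR that pair with its seed. The microRNAs of the transgene share bases 2 to 8, in capitals, as their RefSeq mature sequences show:
mmu-miR-29a-3p, chr6:31062673-31062694, minus strand: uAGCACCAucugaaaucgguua
mmu-miR-29b-3p, chr6:31063025-31063047, minus strand: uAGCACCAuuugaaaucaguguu
The 7 bases that pair with this seed (TGGTGCT) were found in the annotated 3′ UTR (GENCODE M21, GRCm38) of 4 of the 35 UPR genes, or 11.4%, against 1665 of the 10704 genes compared that have a 3′ UTR of at least 50 bases, or 15.6%. The 4 sites, in capitals within 30 bases of transcript, were these:
Derl1: ctttttgtatgtgatTGGTGCTcacgtatt
Ern1: actcagttctggatgTGGTGCTggcccagc
Sel1l: cccaggtttgctctcTGGTGCTtaggagca
Trib3: cggggctgtcttctcTGGTGCTggttcatg
Of these 4 genes, 0 were lower in transgenic islets in both numbers, against 516 of the 1665 genes with a site and 27.4% of all genes compared. A count over 4 genes cannot be told from those shares. Sel1l stood at 1.04 times the wild-type level in number 2 and 1.01 times in number 1, and in the same order of numbers Ern1 at 1.01 and 0.968 times, Derl1 at 1.13 and 0.962 times, and Trib3 at 1.35 and 0.813 times. The median genotype difference was 0.04 over the 4 genes with a site and 0.12 over the other 31, and over all genes it was 0.01 with a site and 0.02 without. Mature microRNAs are not recorded by these libraries, so the level of the transgene product in each library was not analysed here.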

How the data were processed

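Islet RNA of 2 transgenic and 2 wild-type libraries was analysed, grouped by the genotype in the labels and numbered by the titles. Per the labels' protocols, RNA was taken with Trizol from frozen islets and libraries were made with a TruSeq RNA kit. HTSeq 0.6.0 and the build GRCm38 are named in the submitters' processing notes, and no source used here names the aligner. The authors deposited a table of FPKM with gene lengths. FPKM times length came to whole multiples of 1 step per library for 100% of values (within 0.001), and these were taken as reads; the step corresponds to 0.957 to 1.09 times the summed reads, a factor the sources used here do not explain. The floor of 3 reads covers counting error only.

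The unit compared was log2(FPKM + 1), computed from the deposited values, which understates changes of low genes. Genes of at least 1 FPKM in 2 libraries (12716) were tested with limma (version 3.58.1, R 4.3.3; lmFit, then eBayes with a trend). Genotype or library number was the single term, tests were 2-sided, and p-values were adjusted over all of them by Benjamini and Hochberg's method at a threshold of 0.05. Alternatives were a pseudocount of 0.1, a minimum of 5 FPKM, no minimum, median-ratio scaling, leaving out each library, voom on the recovered reads, and the other factor as a term. In some fits a lowess curve (span 0.3) on GC content from GENCODE M21 was removed. The script was tested on simulated data. Promoters and mature microRNAs are RefSeq's (GRCm38.p6), and positions of genes are those deposited with the FPKM values.

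The genes, lists, motifs and the comparison by library number were chosen with earlier results of these data known. All 35 members are named, other pathway genes were named among the 4 with the smallest p per list and comparison, and Slc7a5 and the overlapping genes of the closing section were chosen after their values were seen. For fold changes between genotypes, 10 members were followed singly across the alternative fits, and ratios within each number were given for other members as well. The labels do not say that libraries of the same number are paired, so the number was a term in alternatives only.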

Additional observations from a re-analysis of the deposited data

Results flagged for a closer look

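In 3 of the 35 genes the transgenic and the wild-type libraries differed between the numbers in opposite directions. Canx differed by 0.13 between transgenic 2 and transgenic 1 and by -0.08 between wild type 2 and wild type 1 on the log2(FPKM + 1) scale, a gap of 0.20 between the genotypes. Asns differed by 0.29 within the transgenic and by -0.35 within the wild-type libraries, a gap of 0.64. Chac1 differed by 0.02 within the transgenic and by -0.57 within the wild-type libraries, a gap of 0.59. Each difference is between single libraries, so with 1 library of each genotype and number the gaps were not tested.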

How the results depend on the processing

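Between the library numbers, 23 members were called lower in the reported fit, 23 with a pseudocount of 0.1, with median-ratio scaling or at a minimum of 5 FPKM, 24 with voom, 7 with no filter and 15 to 21 with a library left out. Over all genes, the calls were 102 higher and 172 lower with no filter, 2746 and 2799 with voom and genotype as a term, 2360 and 2752 with the GC curve removed as well (both chosen after seeing the data), and 392 to 765 higher and 443 to 1057 lower with a library left out. The median of the degradation genes was -0.73 with a pseudocount of 0.1, -0.74 with voom, -0.74 with genotype as a term in voom, -0.75 with the GC curve removed, and -0.81 to -0.60 with a library left out. The chaperone median was -1.16 to -0.94 with a library left out. Canx was at -0.09 with the GC curve removed and -0.092 to 0.15 with a library left out, and Asns at -0.24 to 0.18. The cause of these changes was not tested; leaving the filter off both adds genes to the adjustment and changes the SEs (for Hspa5 0.202, against 0.153 in the reported fit).

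Between the genotypes, 0 members were called in every fit without library number. Samples of the same number deviated together (r = 0.775 over genes, 0.930 over members), which with 2 pairs does not show that the numbers pair the libraries. With the replicate block, limma on log2(FPKM + 1) called 0 genes, voom 204 higher and 34 lower with 2 members, and voom with the GC curve removed 61 higher and 13 lower with 2 members. In that last fit the ATF4/CHOP median was -0.021, Atf4 -0.013 and Nupr1 -0.029. Leaving out a library leaves the numbers unequally shared between the genotypes, and the genotype medians then ran from -0.47 to 0.62 for chaperones, -0.28 to 0.59 for degradation genes, -0.17 to 0.37 for the sensors and Xbp1 and -0.27 to 0.42 for the ATF4/CHOP arm. Single genes ran from -0.74 to 1.17 (Hspa5), -0.98 to 1.59 (Creld2), -0.46 to 1.04 (Syvn1), -0.023 to 0.74 (Edem2), -0.25 to 0.63 (Xbp1), -0.21 to 0.37 (Atf4), -0.70 to 0.99 (Ddit3), -0.51 to 1.48 (Ppp1r15a), -0.27 to 0.074 (Asns) and -0.53 to 0.57 (Nupr1). With 2 libraries per group, only differences well above the gap between libraries can pass.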

Other observations

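Other transcripts that overlap the UPR genes also differed between the library numbers; they were chosen after their values were seen. Gm15344, annotated as a processed transcript on the strand of Hsp90b1 and inside that gene (chr10:86692119-86693095, GRCm38), held 92 reads in transgenic 2 and 87 in wild type 2, against 4288 in transgenic 1 and 4030 in wild type 1. Its difference of -5.30 ± 0.14 in log2(FPKM + 1) (SE; adjusted p = 0.000488, limma) was the lowest of the 12716 genes compared, against -1.09 for Hsp90b1. On the other strand at the same locus, 1810014B01Rik, annotated as a transcribed pseudogene, held 179 reads in transgenic 2 and 202 in wild type 2, against 1638 in transgenic 1 and 1601 in wild type 1 (-2.65 ± 0.09, adjusted p = 0.000845, limma). Gm15344 shares its strand with Hsp90b1, and for 1810014B01Rik strand assignment is not stated, so how the reads were divided between these genes is uncertain.

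At Herpud1, the antisense gene Gm15890 held 19 reads in transgenic 2 and 18 in wild type 2, against 192 in each number 1 library (-2.44 ± 0.11, adjusted p = 0.000993, limma), beside -2.19 for Herpud1. Rbm15b, an RNA-binding protein gene inside the annotated span of Manf and on its strand, held 1257 reads in transgenic 2 and 1163 in wild type 2, against 8374 in transgenic 1 and 7652 in wild type 1. Its difference was -2.50 ± 0.14 (adjusted p = 0.00186, limma), beside -0.98 for Manf. At Eif2ak3, the gene model Gm43292 on the opposite strand held 6 reads in transgenic 2 and 18 in wild type 2, against 110 in transgenic 1 and 103 in wild type 1, beside a difference of -0.73 for Eif2ak3. By contrast Mars, a methionyl-tRNA synthetase gene whose end overlaps Ddit3 on the opposite strand, held 2086 reads in transgenic 2 and 2103 in wild type 2, against 2468 in transgenic 1 and 2035 in wild type 1, with a difference of -0.0092 ± 0.13.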
